A study of Mus musculus with 12 samples.

Results

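Interleukin-4 (IL-4) is a cytokine of allergy, worm infection and wound repair, and the comparison described here is the response to it of wild-type (WT) mouse bone marrow-derived macrophages, which are macrophages grown from marrow precursors in culture. It rests on 4 of the 12 RNA-seq libraries of the series, chosen by their labels: 2 libraries of WT macrophages given IL-4 at 20 ng/mL for 24 h and 2 libraries of WT macrophages left untreated. The series also holds, with 2 libraries a group, CKO macrophages given IL-4, CKO macrophages left untreated, and WT and CKO macrophages given interferon-gamma (IFN-γ, 100 U/mL, 24 h), a lymphocyte cytokine of defence against microbes inside cells. The labels do not spell out CKO or name an allele or a Cre driver; the title of the series speaks of IRF8, a transcription factor, in macrophages and of an anti-metastatic program in breast cancer. The labels give no sex or age, and do not say whether both libraries of 1 group are from separate mice or cultures, so p-values measure the spread between these libraries, which may be technical.

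IL-4 binds a receptor made of the IL-4 receptor alpha chain and either the common gamma chain or the IL-13 receptor alpha-1 chain. Janus kinases on these chains phosphorylate the transcription factor STAT6, which moves to the nucleus and binds DNA at a palindrome of TTC and GAA. In macrophages this program is known for arginase, for chitinase-like and resistin-like secreted proteins and for the mannose receptor, and it is often called alternative activation.

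STAT6 differs from most of its family in preferring 4 bases between TTC and GAA over 3 bases, so the 250 bases before the start of each gene were searched for that arrangement, which reads the same on both strands. It stood in 6.76% of all 27025 genes with a promoter in the RefSeq table (build GRCm38.p6) and in 5.78% of the 9864 tested genes that had a promoter there. Of the 1081 genes called higher after IL-4, 749 had a promoter there, and 7.34% of these held the arrangement. Of the 225 called at least 4-fold higher 153 had one, with 10.5% holding it. Of the 911 called lower 662 had one, with 5.14% holding it. The other called genes were not searched. With 3 bases between TTC and GAA the shares were 7.08%, 9.15% and 8.76% in the same gene sets, 7.33% of tested genes and 8.13% of all genes with a promoter. Among the named genes called higher, those with the 4-base arrangement were Retnla, Tmem26, Pdcd1lg2, Itgax, Tfeb and Nop16, and the windows of the 4 with the largest fold changes are printed to show the arrangement in place. Among the 15 largest increases described next, 10 had a promoter in the table, of which 1 held the 4-base and 2 the 3-base arrangement. All 4 genes lie on the plus strand, the windows are chr16:48842424-48842513, chr10:68723496-68723568, chr19:29410797-29410886 and chr7:128129383-128129472 on GRCm38.p6, and the capitals mark the 10 bases of TTC, the spacer and GAA.
Retnla: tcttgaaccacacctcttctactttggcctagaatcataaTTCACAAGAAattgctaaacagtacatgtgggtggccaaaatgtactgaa
Tmem26: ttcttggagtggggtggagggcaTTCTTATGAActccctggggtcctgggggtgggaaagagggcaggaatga
Pdcd1lg2: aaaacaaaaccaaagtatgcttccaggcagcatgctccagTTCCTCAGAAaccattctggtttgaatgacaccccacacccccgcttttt
Itgax: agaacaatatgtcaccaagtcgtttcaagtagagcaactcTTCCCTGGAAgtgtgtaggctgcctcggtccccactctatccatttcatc
The first capital lies 145, 227, 82 and 127 bases before the annotated start of Retnla, Tmem26, Pdcd1lg2 and Itgax. A match describes these letters and does not show that a factor bound them.

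The 4 libraries held 21287725 and 29842151 counts after IL-4 and 28214785 and 28509822 counts untreated, and the count filter left 16292 of 48440 genes for testing. Mitochondrial genes took 3.25% and 3.15% of counts after IL-4 and 2.60% and 3.01% untreated. Gm42418, which overlaps ribosomal RNA sequence, took 0.174% and 0.163% after IL-4 and 1.05% and 0.087% untreated, so untreated library 1 stood apart in this RNA. Of the other libraries, untreated CKO library 1 stood apart with 1.52% mitochondrial counts against 2.12% to 3.25% elsewhere. Gm42418 was also high in untreated CKO library 1 (1.28%) and in WT IFN-γ library 1 (0.753%), and took at most 0.174% in the libraries not named here as high. Whether these shares bear on the results was not tested.

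Macrophage identity was present in all 4 libraries: the 14 macrophage markers were all tested and summed to 13200 and 11700 CPM (counts scaled to library size with TMM factors) after IL-4 and 18700 and 17200 CPM untreated. Csf1r, the receptor for the growth factor that keeps macrophages alive, stood at 1038 and 994 CPM after IL-4 and 994 and 909 CPM untreated. Adgre1, the gene of the F4/80 antigen, stood at 899 and 843 CPM after IL-4 and 743 and 661 CPM untreated. Neither gene was called changed (edgeR adjusted p = 0.744 and 0.199), whereas 1 marker of the 14 rose and 6 fell. Lyz2, the lysozyme gene and the largest part of that sum, stood at 7667 and 6520.0 CPM after IL-4 and 11860.0 and 10960.0 CPM untreated (log2 fold change −0.69 ± 0.12, edgeR adjusted p = 0.00348). Without IL-4 library 2 the Lyz2 change missed the test (edgeR adjusted p = 0.0646) and the 6 markers that fell became 3. In bulk RNA, fewer cells of a type and less RNA per cell cannot be told apart.

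Markers of other cells were low. The 14 neutrophil markers summed to 66.4 and 57.3 CPM after IL-4 and 61.6 and 71.0 CPM untreated, with 0 of 13 tested called. Monocyte markers summed to 33.7 and 35.1 CPM after IL-4 and 42.9 and 47.4 CPM untreated, and 2 of 7 fell. Conventional dendritic cell markers summed to 9.02 and 8.0 CPM after IL-4 and 2.83 and 2.22 CPM untreated, where 2 of 7 rose, Zbtb46 and Batf3, while Flt3 and Clec9a stayed at or under 0.280 CPM and Ccr7 had no count in any of the 4. Endothelial markers summed to 298 and 314 CPM after IL-4 and 169 and 160 CPM untreated: Vwf and Pecam1 rose, Cdh5 stayed at or under 0.751 CPM and Emcn had 1 count in the 4 libraries. Of 5 eosinophil markers Siglecf alone was called, higher, while Epx had no count. B, T or NK, mast cell or basophil, erythroid and fibroblast lists each summed to at most 2.32 CPM, 1 of their members (Kit, lower) was called, and Cd3e, Lum and Mcpt8 had no count. Plasmacytoid dendritic cell markers summed to 77.4 and 74.3 CPM after IL-4 and 83.8 and 81.5 CPM untreated, nearly all of it Tcf4, and none was called. The genes named in this paragraph were chosen after their values were seen. Without untreated library 1 the 2 dendritic cell calls became 1, without any 1 of the 4 libraries the 2 endothelial calls became 1 and the Kit call was lost, and the Siglecf call was lost without IL-4 library 1, IL-4 library 2 or untreated library 1. The part of other cells in the results was not tested.

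IL-4 changed 1992 of the 16292 tested genes (edgeR's quasi-likelihood test, Benjamini-Hochberg adjusted p under 0.05). Of these 1081 rose, 6.64% of genes tested, and 911 fell, 5.59%. Calls in either direction made up 12.2% of tested genes, the share to set beside the counts of the gene lists below. The 2 groups did not overlap in any of the 1081 increases or 911 decreases, so separation of the libraries adds nothing to a call. Large changes were mostly increases: 518 genes rose and 291 fell at least 2-fold, 129 rose and 11 fell at least 8-fold, and 86 rose and 1 fell at least 16-fold. The median log2 fold change was 0.96 among genes that rose, −0.75 among those that fell and −0.003 over all tested genes. Protein-coding genes made up 937 of the increases and 854 of the decreases.

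In shares of all counts, the genes that rose took 14.9% and 14.6% in the IL-4 libraries and 8.58% and 8.44% in the untreated libraries. The genes that fell took 6.39% and 6.23% in the IL-4 libraries and 10.9% and 10.5% in the untreated libraries. The numbers of calls leaned on having 2 libraries a side: without IL-4 library 1, IL-4 library 2, untreated library 1 and untreated library 2 the 1081 increases became 556, 559, 553 and 588, and the 911 decreases became 337, 352, 412 and 462. No called gene changed sign in any of these fits.

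**Figure D1:**
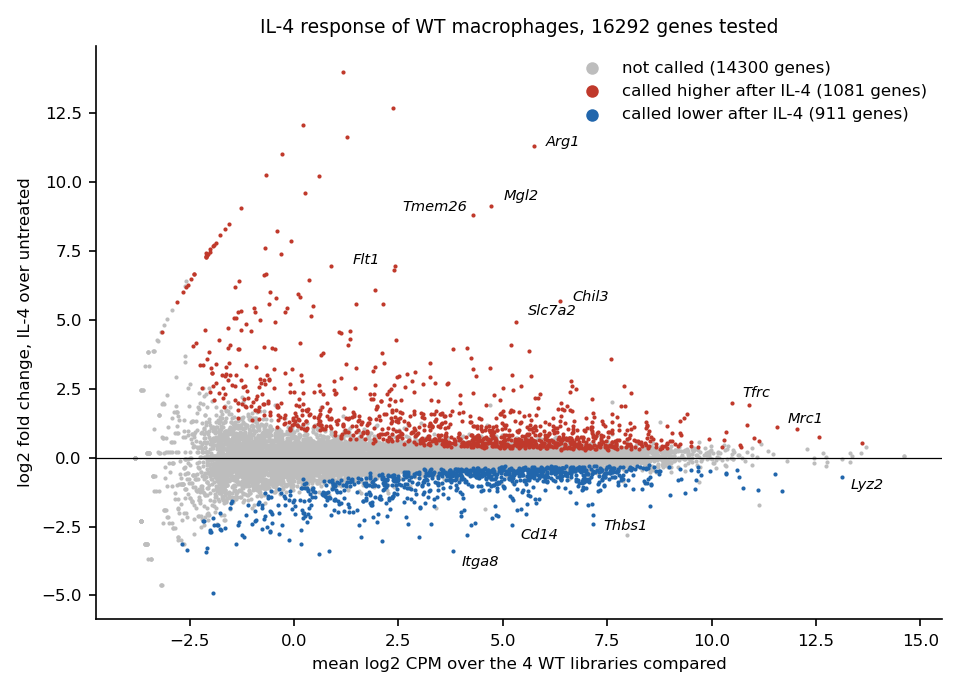
Each point is 1 of 16292 tested genes: the horizontal axis is the mean log2 CPM over the 2 IL-4 and 2 untreated WT libraries, the vertical axis the log2 fold change of IL-4 over untreated. Red points rose (1081 genes), blue points fell (911 genes) and grey points were not called; increases reach far higher than decreases reach down, and fold changes of genes without a count in a group, on the upper left, depend on the prior count of the fit.

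Increases are ranked here among genes with a mean log2 CPM of at least 3 over the 4 libraries, which leaves out genes nearly absent untreated. Retnla and Rnase2a, described below, are such genes, with log2 fold changes above that of Arg1. The largest increases past this mean were led by Arg1 (arginase 1, which splits arginine into ornithine and urea; ENSMUSG00000019987.8, GRCm38 chr10:24915221-24927484). Arg1 stood at 2923 and 2399 CPM after IL-4 and 0.734 and 1.36 CPM untreated, the largest fold change of the 15 increases named by rule (log2 fold change 11.30 ± 0.70, edgeR adjusted p = 1.73e-05). Mgl2, a galactose-binding lectin receptor gene (ENSMUSG00000040950.13, chr11:70130329-70137550), stood at 586 and 622 CPM after IL-4 and 1.08 and 1.09 CPM untreated (log2 fold change 9.11 ± 0.38, edgeR adjusted p = 2.2e-07). Tmem26, a transmembrane protein gene, stood at 423 and 377 CPM after IL-4 and 0.734 and 1.06 CPM untreated (log2 fold change 8.79 ± 0.34, edgeR adjusted p = 8e-08). These 3 genes were close to 1 CPM in both untreated libraries and far above it in both IL-4 libraries. Chil3, which encodes the chitinase-like protein Ym1 (ENSMUSG00000040809.10, chr3:106147554-106167564), stood at 754 and 449 CPM after IL-4 and 12.4 and 10.98 CPM untreated (log2 fold change 5.69 ± 0.28, edgeR adjusted p = 4.04e-07), and its IL-4 libraries differed from each other more than those of Mgl2 did. Slc7a2, a transporter gene for arginine and other cationic amino acids, stood at 242 and 196 CPM after IL-4 and 7.897 and 6.45 CPM untreated (log2 fold change 4.93 ± 0.15, edgeR adjusted p = 5.83e-09).

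The other 10 increases were between 2.99 and 4.10 on the log2 scale. They were Clec10a, a lectin receptor next to Mgl2; Lipn, a lipase gene; Ms4a4a, a membrane protein gene; Fn1, fibronectin; the transcription factor genes Egr2, Irf4 and Klf4; Atp6v0d2, a subunit of the proton pump that acidifies lysosomes; F10, coagulation factor X; and Mcf2l, an activator of small GTPases. Atp6v0d2 stood at 720.5 and 623 CPM after IL-4 and 63.04 and 48.8 CPM untreated (log2 fold change 3.59 ± 0.29, edgeR adjusted p = 1.94e-05). Lipn stood at 73.5 and 64.5 CPM after IL-4 and 4.65 and 4.16 CPM untreated (log2 fold change 3.97 ± 0.16, edgeR adjusted p = 4.21e-08). Ms4a4a stood at 56.6 and 54.1 CPM after IL-4 and 4.58 and 2.69 CPM untreated (log2 fold change 3.93 ± 0.49, edgeR adjusted p = 0.000848). Many genes under the mean log2 CPM of 3 had larger fold changes than these 10, and at any mean 86 genes rose at least 16-fold. Among those described below are Flt1, Cdh1, Ccl22, Cish, Chil4, Pdcd1lg2, Ccl8, Itgb8, Ccl24, Ear2, Ocstamp, Socs1 and Ch25h. The 15 were taken from calls whose groups did not overlap, so their separation was set by the choice. All 15 calls held without any 1 of the 4 libraries.

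The 15 largest decreases past the same mean were smaller. Genes under that mean are left out here too, such as Cx3cr1, described below (log2 fold change −2.99). At any mean 11 genes fell at least 8-fold. Itga8, an integrin chain gene (ENSMUSG00000026768.10, chr2:12106632-12301922), stood at 4.198 and 4.32 CPM after IL-4 and 45.2 and 44.9 CPM untreated (log2 fold change −3.40 ± 0.33, edgeR adjusted p = 5.52e-05). Pilra, an inhibitory receptor gene, stood at 3.38 and 2.5 CPM after IL-4 and 20.6 and 22.5 CPM untreated (log2 fold change −2.89 ± 0.17, edgeR adjusted p = 5.29e-07). Cd14, the co-receptor that hands bacterial lipopolysaccharide to Toll-like receptor 4, stood at 17.4 and 14.8 CPM after IL-4 and 88.8 and 84.9 CPM untreated (log2 fold change −2.43 ± 0.13, edgeR adjusted p = 2.48e-07). These 15 were also taken from calls without overlap, and both IL-4 libraries lay below both untreated libraries by that choice. Thbs1, the matrix protein thrombospondin 1, stood at 66.7 and 56.9 CPM after IL-4 and 301 and 356 CPM untreated (log2 fold change −2.41 ± 0.38, edgeR adjusted p = 0.00283). The others were Marcksl1 and Inpp4b, an actin regulator and an inositol lipid phosphatase; Nanos1, an RNA-binding protein; Tlr2, a receptor for bacterial lipopeptides; Ctla2b; Arap3, a regulator of small GTPases; Gsta3, a glutathione transferase; the lectin receptor genes Clec4n and Clec4e; Il17ra, the IL-17 receptor chain; and Lama3, a laminin chain. These 11 had log2 fold changes between −2.82 and −1.970. All 15 calls held without any 1 of the 4 libraries.

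**Figure D2:**
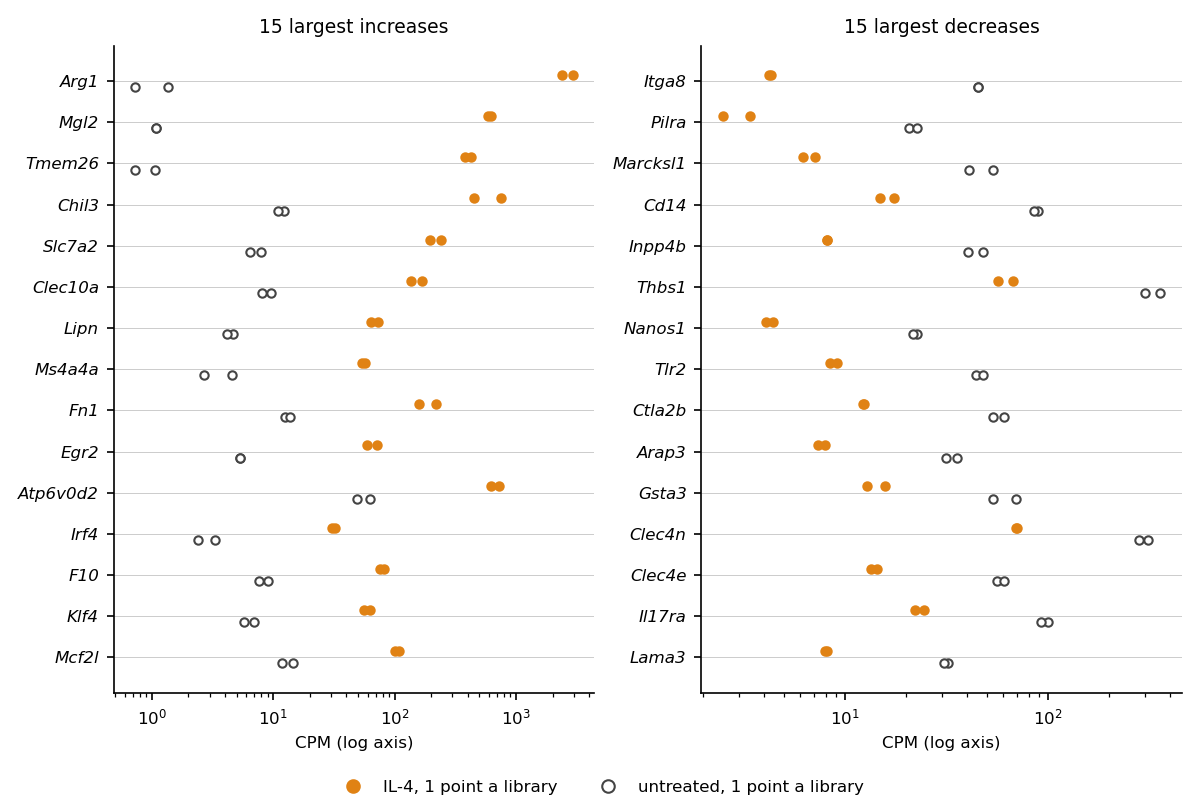
CPM by library on a log axis for the 15 largest increases (left) and the 15 largest decreases (right); filled points are the 2 IL-4 libraries, drawn above, and open points the 2 untreated libraries. Rows run from a log2 fold change of 11.30 for Arg1 at the top left and −3.40 for Itga8 at the top right. They were chosen among calls with a mean log2 CPM of at least 3 over the 4 libraries and no overlap of the groups.

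Most genes of the IL-4 receptor and its first signalling steps were not called, and 3 feedback inhibitor genes rose. Of 20 tested genes of IL-4 receptor and signalling, 4 rose and 3 fell, with a median log2 fold change of 0.11. Cish, a feedback inhibitor of cytokine receptor signalling that STAT factors induce, stood at 15.5 and 20.5 CPM after IL-4 and 0.245 and 0.512 CPM untreated (log2 fold change 5.56 ± 0.34, edgeR adjusted p = 1.02e-06). Its relatives Socs1 (6.27 and 14.2 CPM after IL-4 and 0.2796 and 0.614 CPM untreated) and Socs2 (1.83 and 2.601 CPM after IL-4 and 0.489 and 0.205 CPM untreated) also rose. Socs1 was more spread between libraries than the others (log2 fold change 4.52 ± 0.56, edgeR adjusted p = 0.000465, and 2.68 ± 0.44, edgeR adjusted p = 0.00168 for Socs2). The kinase gene Jak2 rose to 119 and 121 CPM after IL-4, against 44.8 and 44 CPM untreated (log2 fold change 1.43 ± 0.11, edgeR adjusted p = 6.86e-06).

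Receptor chains went the other way or were not called. Il13ra1, the IL-13 receptor alpha-1 chain, fell to 3.57 and 2.23 CPM after IL-4, against 8.81 and 7.505 CPM untreated (log2 fold change −1.52 ± 0.21, edgeR adjusted p = 0.000532). Il4ra itself stood at 104 and 98.9 CPM after IL-4 and 127 and 134 CPM untreated (log2 fold change −0.36 ± 0.089, edgeR adjusted p = 0.0199), a call that was lost without any 1 of the 4 libraries (log2 fold changes −0.42 to −0.32). Ptpn6, the phosphatase SHP-1 that dampens cytokine signals, had a log2 fold change of −0.50 ± 0.095, edgeR adjusted p = 0.00478, not past the test without IL-4 library 1 or untreated library 2; without either of these the 3 decreases of the list became 1. Stat6 was not called and stood at 203 and 202 CPM after IL-4 and 236 and 223 CPM untreated (log2 fold change −0.18 ± 0.086, edgeR adjusted p = 0.222). Il2rg, Jak1, Jak3, Tyk2, Irs2, Pik3r1, Pik3cd, Akt1, Grb2, Ptpn1, Ptpn11 and Socs3 were not called either, with log2 fold changes from −0.48 for Jak3 to 1.05 for Socs3. Il13ra2 and Irs1 had too few counts to test.

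Arginine uptake and use rose at 3 steps and the polyamine genes that use its product were mostly not called. Of 17 tested genes of arginine, nitric oxide and polyamines 4 rose and 1 fell, with a median of 0.22, or 0.29 without Nos2, which had at most 3 counts in either group. Beside Arg1 and Slc7a2, Ass1, which remakes arginine from citrulline, stood at 32.8 and 33.2 CPM after IL-4 and 5.696 and 4.4 CPM untreated (log2 fold change 2.71 ± 0.17, edgeR adjusted p = 1.28e-06). Nos2, the inducible nitric oxide synthase that competes with arginase for arginine, had 0 counts over the 2 IL-4 libraries and 3 over the 2 untreated libraries, too few to give a fold. The spermidine acetylase gene Sat1 stood at 343 and 305 CPM after IL-4 and 186 and 176 CPM untreated (0.84 ± 0.22, edgeR adjusted p = 0.0314) and the spermine oxidase gene Smox at 16.4 and 17.3 CPM after IL-4 and 22.3 and 26.5 CPM untreated (−0.53 ± 0.12, edgeR adjusted p = 0.0163). The Sat1 call was lost without any 1 of the 4 libraries and the Smox call without IL-4 library 1, IL-4 library 2 or untreated library 2. Not called were Arg2, Asl, Slc7a1, Odc1, Azin1, Oaz1, Oaz2, Amd1, Srm, Sms and Paox; Odc1, the first enzyme of polyamine synthesis, stood at 92.1 and 90.9 CPM after IL-4 and 62.8 and 80.8 CPM untreated (log2 fold change 0.35 ± 0.17, edgeR adjusted p = 0.239).

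Over tested members, secreted proteins of the alternative program had the highest median log2 fold change of the pathway lists. Of 14 listed chitinase-like, resistin-like and eosinophil-associated ribonuclease genes 8 were tested. Chit1, Chia1, Retnlb, Retn, Ear6 and Ear10 had too few counts. Of the 8, 5 rose and 0 fell, with a median of 5.20, also 5.20 with Rnase2a and Ear1 at their lower bounds. Retnla, Rnase2a, Ear2 and Ear1 had at most 3 counts untreated, so this median and its rank lean on genes counted almost only after IL-4. Retnla, the resistin-like protein also called FIZZ1, had 12795 counts over the 2 IL-4 libraries and 2 over the 2 untreated libraries, a ratio of 7370 (95% exact counting interval 2040 to 60800; edgeR adjusted p = 5.29e-06). Rnase2a, an eosinophil-type ribonuclease gene, had 3705 counts after IL-4 and 0 untreated, at least 1420-fold higher when 3 counts over the untreated group are taken as the floor (edgeR adjusted p = 1.93e-07). Its relative Ear2 had 80 counts after IL-4 and 3 untreated, a ratio of 30.7 (95% exact counting interval 10.1 to 152; edgeR adjusted p = 0.000184). Chil4, next to Chil3 on chromosome 3, stood at 34.8 and 22.8 CPM after IL-4 and 0.594 and 0.614 CPM untreated (log2 fold change 5.56 ± 0.28, edgeR adjusted p = 2.2e-07). Chil1 and Retnlg were not called, at 0.193 and 0.236 CPM after IL-4 and 0.384 and 0.375 CPM untreated for Chil1, and Ear1 had 6 counts after IL-4 and 0 untreated and was not called (edgeR adjusted p = 0.128). Intervals and floors cover counting error only. Chil3 with Chil4, Mgl2 with Clec10a, and Rnase2a with the Ear genes are close paralogs, and how reads were shared out between them in the authors' counting is uncertain.

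Lectin and scavenger receptors split evenly, 6 higher and 6 lower of 22 tested, with a median of −0.06, or 0.00 without Timd4, which had at most 3 counts in either group. Mrc1, the mannose receptor, was already high and rose to 4515 and 4398 CPM after IL-4, against 2120.0 and 2052 CPM untreated (log2 fold change 1.10 ± 0.091, edgeR adjusted p = 1.02e-05). Clec10a, a receptor for galactose-type sugars, stood at 136 and 168 CPM after IL-4 and 8.07 and 9.69 CPM untreated (log2 fold change 4.10 ± 0.25, edgeR adjusted p = 1.42e-06). Against these, Clec4n, the gene of dectin-2, stood at 70.3 and 69.04 CPM after IL-4 and 309 and 281 CPM untreated (log2 fold change −2.08 ± 0.20, edgeR adjusted p = 3.64e-05). Clec4e, the gene of Mincle, a receptor for mycobacterial glycolipid, stood at 13.4 and 14.3 CPM after IL-4 and 55.7 and 60.9 CPM untreated (log2 fold change −2.07 ± 0.23, edgeR adjusted p = 0.000149). Each of these 4 calls held without any 1 of the 4 libraries.

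Neighbouring genes moved together at some of these places and not at others, which was looked at after their values were seen. On chromosome 6, Clec4n, Clec4d and Clec4e lie side by side and all fell: Clec4d stood at 261 and 278 CPM after IL-4 and 497 and 542 CPM untreated (log2 fold change −0.94 ± 0.14, edgeR adjusted p = 0.000678). Clec4a2, on the far side of Clec4n, stood at 41.5 and 42.4 CPM after IL-4 and 36.7 and 35.5 CPM untreated and was not called (0.22 ± 0.13, edgeR adjusted p = 0.352). On chromosome 8, Mcf2l, F7 and F10 follow each other between 12873806 and 13056676 (GRCm38) and all rose, by 2.99, 2.45 and 3.24 on the log2 scale, and so did the next gene, Pcid2 (0.64, edgeR adjusted p = 0.00896). On chromosome 11 Mgl2 and Clec10a lie side by side between 70130329 and 70170834, and on chromosome 3 Chil3 and Chil4 between 106147554 and 106219507. Whether reads of a neighbour were counted in these genes was not tested.

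MHC class II genes rose modestly. Of 15 tested members 8 rose and 0 fell, with a median of 0.43. Cd74, the invariant chain that guides class II molecules, stood at 101 and 110.5 CPM after IL-4 and 18.1 and 17.3 CPM untreated (log2 fold change 2.58 ± 0.13, edgeR adjusted p = 1.93e-07). Ciita, the master regulator of these genes, stood at 3.09 and 3.68 CPM after IL-4 and 0.629 and 0.7505 CPM untreated (log2 fold change 2.30 ± 0.25, edgeR adjusted p = 7.65e-05). The class II chain genes H2-Aa (17.7 and 22.1 CPM after IL-4 and 6.81 and 6.38 CPM untreated) and H2-Ab1 (10.9 and 15.1 CPM after IL-4 and 4.05 and 4.13 CPM untreated) had log2 fold changes of 1.59 ± 0.19, edgeR adjusted p = 0.0002, and 1.67 ± 0.18, edgeR adjusted p = 6.31e-05. IL-4 libraries were above untreated libraries in all 4 genes, as in every increase, but far below IFN-γ libraries. Set directly against IFN-γ in WT cells, 0 of the 15 were higher after IL-4 and 12 were lower. Over all tested genes that comparison called 2252 higher (13.8%) and 2310 lower (14.2%) after IL-4, and 1416 or 1412 higher without IL-4 library 1 or IL-4 library 2. Cd74 held 101 and 110.5 CPM after IL-4 and 1110.0 and 1046 CPM after IFN-γ (−3.35, edgeR adjusted p = 3.16e-09).

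Among 12 costimulatory and checkpoint genes 4 rose and 3 fell (median −0.10). Pdcd1lg2, the gene of PD-L2, a ligand that restrains T cells through PD-1, had 327 counts after IL-4 and 1 untreated, a ratio of 377 (95% exact counting interval 67.1 to 14900; edgeR adjusted p = 8.16e-06). The other PD-1 ligand gene, Cd274 (PD-L1), stood at 113 and 102 CPM after IL-4 and 32.8 and 28.01 CPM untreated (log2 fold change 1.82 ± 0.25, edgeR adjusted p = 0.000665). Both ligand genes were higher in both IL-4 libraries, as in every increase. Cd40, the receptor for T cell help, stood at 11.6 and 11.7 CPM after IL-4 and 5.35 and 5.49 CPM untreated (log2 fold change 1.10 ± 0.14, edgeR adjusted p = 0.000209), and Icosl, the ligand of the T cell receptor ICOS, at 3.86 and 4.66 CPM after IL-4 and 15.03 and 15.7 CPM untreated (log2 fold change −1.84 ± 0.20, edgeR adjusted p = 9.25e-05). The 3 decreases of this list became 1 without IL-4 library 1.

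Transcription factors of macrophage activation rose in 11 of 32 cases and fell in 4 (median 0.22, or 0.24 with Egr3 at its bound and without Hes1, which had at most 3 counts in either group). Klf4, Irf4 and Egr2, which STAT6 is known to induce, stood at 56.02 and 62.8 CPM after IL-4 and 5.77 and 6.89 CPM untreated for Klf4, 30.6 and 32.3 CPM after IL-4 and 2.41 and 3.34 CPM untreated for Irf4 and 58.8 and 71.6 CPM after IL-4 and 5.35 and 5.32 CPM untreated for Egr2. All 3 rose (log2 fold changes 3.23 ± 0.12, edgeR adjusted p = 3.84e-08, 3.45 ± 0.16, edgeR adjusted p = 1.53e-07 and 3.61 ± 0.21, edgeR adjusted p = 8.54e-07). Nfil3, a repressor tied to cytokine signalling, rose to 34.3 and 29.2 CPM after IL-4, against 4.89 and 4.95 CPM untreated (2.69 ± 0.15, edgeR adjusted p = 5.29e-07). Irf8, the factor in the series title, stood at 70.9 and 65.7 CPM after IL-4 and 90.9 and 91.2 CPM untreated (log2 fold change −0.42 ± 0.11, edgeR adjusted p = 0.0336); its call was lost without any 1 of the 4 libraries (log2 fold changes −0.48 to −0.37). With IL-4 library 1, IL-4 library 2, untreated library 1 and untreated library 2 left out in turn, the 4 decreases became 2, 2, 1 and 2.

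Chemokine ligand genes moved both ways. Of 19 tested chemokine ligand genes 4 rose and 6 fell (median −0.56, the same with Ccl8 at its bound and without Cxcl9 and Cxcl11, which had at most 1 count in either group). Ccl22, which attracts regulatory and helper T cells, had 452 counts after IL-4 and 2 untreated, a ratio of 260 (95% exact counting interval 71.6 to 2160; edgeR adjusted p = 2.2e-07). Ccl24, an attractant of eosinophils, stood at 7.04 and 8.95 CPM after IL-4 and 0.105 and 0.239 CPM untreated (log2 fold change 5.51 ± 0.43, edgeR adjusted p = 6.86e-06), and Ccl8 had 39 counts after IL-4 and 0 untreated, at least 15-fold higher (edgeR adjusted p = 0.00123). Cxcl16, a membrane-bound chemokine, stood at 2.17 and 1.35 CPM after IL-4 and 8.88 and 6.34 CPM untreated (log2 fold change −2.14 ± 0.24, edgeR adjusted p = 9.23e-05). The others that fell were Ccl3, Ccl4, Cxcl2, Cxcl14 and Pf4. Ccl17, often named beside Ccl22, had 3 counts after IL-4 and 0 untreated and was not tested. Without untreated library 2 the 6 decreases became 2.

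Chemokine receptors were called in 4 of 9 cases, 2 higher and 2 lower (median −0.10). Cx3cr1, the fractalkine receptor, stood at 0.193 and 0.372 CPM after IL-4 and 2.06 and 2.69 CPM untreated (log2 fold change −2.99 ± 0.33, edgeR adjusted p = 9.27e-05). Cxcr3 stood at 0.724 and 1.96 CPM after IL-4 and 5.35 and 5.63 CPM untreated (−1.96 ± 0.33, edgeR adjusted p = 0.00234). Ccr1 stood at 126 and 120.4 CPM after IL-4 and 80.5 and 70.2 CPM untreated (0.71 ± 0.14, edgeR adjusted p = 0.00757); without IL-4 library 1 or untreated library 2 its call was lost and the 2 increases became 1. Of 15 inflammatory cytokine and inhibitor genes 1 rose and 1 fell (median −0.27), 13.3% of the list and close to the 12.2% of all tested genes. The one that rose was Il1rl1, the receptor for the alarm cytokine IL-33, with 14.9 and 15.1 CPM after IL-4 and 1.85 and 2.05 CPM untreated (log2 fold change 2.94 ± 0.33, edgeR adjusted p = 0.000138), and Il18 had 2.46 and 2.77 CPM after IL-4 and 4.75 and 5.59 CPM untreated (−0.98 ± 0.21, edgeR adjusted p = 0.0111), a call lost without IL-4 library 1, IL-4 library 2 or untreated library 2.

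Several sensors of bacteria fell. Of 21 pattern receptor and inflammasome genes 4 rose and 6 fell (median −0.14), and the 4 with the smallest p all fell. Tlr2 stood at 8.396 and 9.15 CPM after IL-4 and 43.9 and 47.7 CPM untreated (log2 fold change −2.38 ± 0.13, edgeR adjusted p = 4.69e-07). Tlr5, the flagellin receptor, stood at 1.01 and 1.25 CPM after IL-4 and 4.02 and 4.74 CPM untreated (log2 fold change −1.93 ± 0.22, edgeR adjusted p = 0.000109). Nlrp3, an inflammasome sensor, stood at 21.2 and 22.7 CPM after IL-4 and 65.1 and 63.6 CPM untreated (log2 fold change −1.55 ± 0.12, edgeR adjusted p = 5.55e-06). Together with Cd14 these genes fell, while the 4 that rose, Tlr1, Tlr4, Tlr8 and Pycard, had log2 fold changes of at most 0.94. In the fits without IL-4 library 1, IL-4 library 2, untreated library 1 and untreated library 2, those 4 increases became 0, 2, 2 and 1.

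Complement and Fc receptor genes moved both ways, 3 higher and 5 lower of 16 (median −0.37, or −0.46 without Cfb, which had no count in the 4 libraries). Fcgr1, the high-affinity IgG receptor, stood at 9.79 and 10.2 CPM after IL-4 and 26.1 and 28.7 CPM untreated (log2 fold change −1.46 ± 0.13, edgeR adjusted p = 2.27e-05), while Fcgr2b, the inhibitory IgG receptor, stood at 527 and 492 CPM after IL-4 and 269.6 and 253 CPM untreated (log2 fold change 0.96 ± 0.12, edgeR adjusted p = 0.000168). Fcgr1 was thus lower and Fcgr2b higher after IL-4, and values of the other activating Fc receptor genes of the list are not given here. C3, the central complement protein, stood at 25.7 and 25.2 CPM after IL-4 and 10.3 and 9.96 CPM untreated (1.33 ± 0.12, edgeR adjusted p = 1.43e-05), and C5ar1, the receptor for a complement fragment that attracts leukocytes, at 185 and 188 CPM after IL-4 and 420.3 and 403 CPM untreated (−1.14 ± 0.26, edgeR adjusted p = 0.0154). The C5ar1 call was lost without any 1 of the 4 libraries, and the 5 decreases became 1 in each of those fits.

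Antiviral interferon-stimulated genes fell more often than they rose, and few interferon-induced GTPase genes were called. Of 35 antiviral genes 3 rose and 12 fell (median −0.31), and of 16 interferon-induced GTPase genes 1 rose and 2 fell (median −0.39). The shares called were 42.9% and 18.8%, against 12.2% of all tested genes. Ifit2, which blocks translation of viral RNA, stood at 3.81 and 5.47 CPM after IL-4 and 10.3 and 7.91 CPM untreated (log2 fold change −0.95 ± 0.17, edgeR adjusted p = 0.00289), and Oas2, a sensor that makes 2-5A in response to viral RNA, at 1.59 and 2.297 CPM after IL-4 and 6.36 and 4.57 CPM untreated (−1.46 ± 0.26, edgeR adjusted p = 0.0034). Usp18, a brake on interferon receptor signalling, went up, with 7.29 and 6.82 CPM after IL-4 and 2.13 and 1.98 CPM untreated (log2 fold change 1.78 ± 0.14, edgeR adjusted p = 7.81e-06), as did Gvin1, a very large GTPase, with 120.0 and 102 CPM after IL-4 and 54.7 and 44.7 CPM untreated (1.16 ± 0.18, edgeR adjusted p = 0.00153). Igtp, a GTPase that acts on vacuoles of parasites, stood at 5.12 and 5.51 CPM after IL-4 and 8.07 and 8.19 CPM untreated (−0.61 ± 0.12, edgeR adjusted p = 0.00503), and its call was lost without IL-4 library 1. Gbp9 (−0.93 ± 0.23, edgeR adjusted p = 0.0196) lost its call without IL-4 library 1, IL-4 library 2 or untreated library 2, and Ifit3 (−2.04 ± 0.41, edgeR adjusted p = 0.00713) without IL-4 library 2 or untreated library 1.

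Against IFN-γ the same genes were nearly all lower after IL-4. In that direct comparison 34 of the 35 antiviral genes and 16 of the 16 GTPase genes were lower and 0 were higher. The same comparison called 14.2% of all tested genes lower and 13.8% higher. These lists hold genes that interferon induces, so the direction was largely set by the choice of lists. Igtp held 5.12 and 5.51 CPM after IL-4 and 419 and 472 CPM after IFN-γ (−6.38, edgeR adjusted p = 2.69e-11). Usp18, higher after IL-4 than untreated, was still lower than after IFN-γ, which gave 33.7 and 35.7 CPM (−2.30, edgeR adjusted p = 4.59e-08). Without IL-4 library 1, IL-4 library 2, untreated library 1 and untreated library 2 the 12 antiviral decreases became 4, 3, 2 and 6 and the 3 increases 1 each time. In the same order the 2 GTPase decreases became 0, 1, 2 and 1 and the 1 increase 1, 1, 2 and 1.

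**Figure D3:**
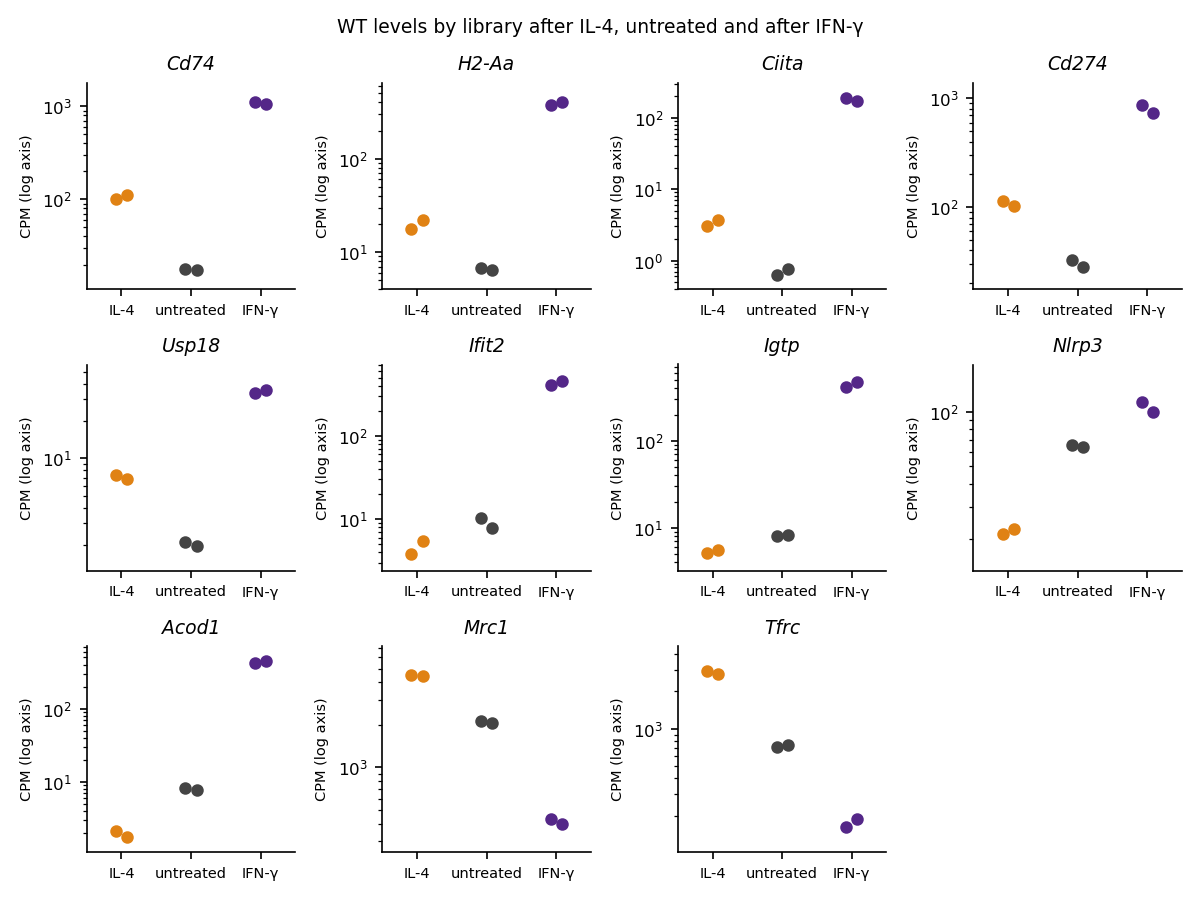
CPM on a log axis in each WT library after IL-4 (left), untreated (middle) and after IFN-γ (right) for 11 named genes. Cd74, H2-Aa, Ciita, Cd274 and Usp18 were higher after IL-4 than untreated and higher still after IFN-γ; Mrc1 and Tfrc were high after IL-4 and low after IFN-γ; Ifit2, Igtp, Nlrp3 and Acod1 were lower after IL-4 than untreated.

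Of 25 matrix, protease and coagulation genes 10 rose and 4 fell (median 0.34). Fn1 stood at 219.7 and 160.4 CPM after IL-4 and 12.4 and 13.8 CPM untreated (log2 fold change 3.86 ± 0.16, edgeR adjusted p = 4.21e-08), and Mmp13, a collagenase, at 128 and 106 CPM after IL-4 and 29.04 and 22.7 CPM untreated (log2 fold change 2.18 ± 0.16, edgeR adjusted p = 3.24e-06). Coagulation factor genes F10 (76.3 and 81.2 CPM after IL-4 and 9.09 and 7.64 CPM untreated) and F7 (89.7 and 86.03 CPM after IL-4 and 16.3 and 15.96 CPM untreated) rose by 3.24 and 2.45 on the log2 scale. Mmp12, the macrophage elastase, averaged 3771 ± 564 CPM after IL-4 and 1006 ± 268 CPM untreated (SD, n = 2 each), while Spp1, osteopontin, averaged 2161 ± 368 CPM after IL-4 and 5046 ± 387 CPM untreated (SD, n = 2 each). Their log2 fold changes were 1.91 (edgeR adjusted p = 3.17e-05) for Mmp12 and −1.22 (edgeR adjusted p = 0.000448) for Spp1, and both genes were chosen after their values were seen. Without IL-4 library 2 the 10 increases became 6.

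Integrins rose in 4 and fell in 3 of 15 cases (median 0.16). Itgax, the CD11c chain, stood at 281 and 224 CPM after IL-4 and 51.6 and 32.1 CPM untreated (log2 fold change 2.59 ± 0.27, edgeR adjusted p = 0.000127), and Itgb3, a chain that binds fibronectin and vitronectin, at 147 and 139.7 CPM after IL-4 and 21.6 and 15.1 CPM untreated (log2 fold change 2.96 ± 0.17, edgeR adjusted p = 7.32e-07). Itgb8, a chain of a receptor for latent TGF-beta, had 94 counts after IL-4 and 1 untreated, a ratio of 108 (95% exact counting interval 19.0 to 4320; edgeR adjusted p = 7.14e-05). Itga6, a laminin receptor chain, fell to 76.5 and 67.9 CPM after IL-4, against 244 and 232 CPM untreated (log2 fold change −1.72 ± 0.11, edgeR adjusted p = 9.4e-07). With Itga8 and Lama3 among the 15 largest decreases, 2 integrin chains and a laminin chain were thus among the named genes that fell.

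Of 17 growth factor and receptor genes 5 rose and 4 fell (median 0.10). Flt1, a receptor for vascular endothelial growth factor, stood at 55.6 and 49.05 CPM after IL-4 and 0.559 and 0.375 CPM untreated (log2 fold change 6.80 ± 0.20, edgeR adjusted p = 5.83e-09). Csf2rb, the shared chain of the GM-CSF, IL-3 and IL-5 receptors, stood at 624 and 601 CPM after IL-4 and 134 and 105 CPM untreated (log2 fold change 2.35 ± 0.20, edgeR adjusted p = 1.36e-05). Pdgfa, a growth factor for fibroblasts, stood at 32.9 and 35.8 CPM after IL-4 and 7.86 and 6.51 CPM untreated (log2 fold change 2.26 ± 0.19, edgeR adjusted p = 1.02e-05). In the other direction, Gas6, the ligand of the Axl and Mer receptors that serve uptake of dead cells, stood at 509.6 and 543 CPM after IL-4 and 1196 and 1108 CPM untreated (log2 fold change −1.13 ± 0.12, edgeR adjusted p = 5.64e-05). As in every call, the groups did not overlap in these 4 genes. Without IL-4 library 1, IL-4 library 2 or untreated library 2 the 4 decreases became 2.

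Macrophage fusion genes, which serve the making of giant cells and osteoclasts, rose in 7 of 19 cases and fell in 1 (median 0.03). Cdh1, E-cadherin, was nearly absent without IL-4 and stood at 18.96 and 16.04 CPM after IL-4 and 0.0699 and 0.205 CPM untreated (log2 fold change 6.94 ± 0.55, edgeR adjusted p = 1.23e-05). Ocstamp, a membrane protein needed for osteoclast fusion, stood at 9.41 and 10.03 CPM after IL-4 and 0.594 and 0.239 CPM untreated (log2 fold change 4.54 ± 0.24, edgeR adjusted p = 3.63e-07), and its partner Dcstamp at 6.997 and 7.803 CPM after IL-4 and 1.92 and 2.12 CPM untreated (log2 fold change 1.87 ± 0.20, edgeR adjusted p = 6.02e-05). Ocstamp was higher still after IFN-γ, with 105 and 97.9 CPM, whereas Cdh1 was at 0.0828 and 0 CPM there. Trem2, the gene that fell (−0.39, edgeR adjusted p = 0.0434), lost its call without any 1 of the 4 libraries.

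Lysosomal genes rose in 5 and fell in 2 of 25 cases (median 0.05). Ctsl, cathepsin L, rose to 2953 and 2615 CPM after IL-4, against 1225 and 1243 CPM untreated (log2 fold change 1.17 ± 0.11, edgeR adjusted p = 2.85e-05), and Tfeb, a regulator of lysosome genes, stood at 38.9 and 37.4 CPM after IL-4 and 19.4 and 20.7 CPM untreated (0.92 ± 0.15, edgeR adjusted p = 0.00137). Ctsz, another cathepsin, had a log2 fold change of 0.69 ± 0.10, edgeR adjusted p = 0.000708, and Ctsc, an activator of serine proteases, of −0.63 ± 0.14, edgeR adjusted p = 0.00987, lost without IL-4 library 1, IL-4 library 2 or untreated library 2. The 5 lysosomal increases became 3 without IL-4 library 1 or untreated library 2, and without IL-4 library 1, IL-4 library 2, untreated library 1 and untreated library 2 the 2 decreases became 0, 0, 1 and 0.

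Genes of iron handling were called in 6 of 14 cases, 3 each way (median −0.15). Tfrc, the transferrin receptor that brings iron into cells, stood at 2902 and 2754 CPM after IL-4 and 709.9 and 736 CPM untreated (log2 fold change 1.968 ± 0.12, edgeR adjusted p = 8.78e-07). Slc40a1, ferroportin, the only known iron exporter, stood at 317 and 326 CPM after IL-4 and 832 and 806 CPM untreated (log2 fold change −1.35 ± 0.16, edgeR adjusted p = 0.00016). Slc11a1, which moves iron out of phagosomes, stood at 283 and 262 CPM after IL-4 and 496 and 437 CPM untreated (log2 fold change −0.78 ± 0.11, edgeR adjusted p = 0.000736). The importer was thus higher and the exporter lower after IL-4, and Tfrc at 162 and 189 CPM after IFN-γ lay lower than in either. Without IL-4 library 1, untreated library 1 or untreated library 2 the 3 increases became 1.

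Lipid genes had few calls that held without each library. Of 24 genes of fatty acid oxidation and uptake 3 rose (median 0.24), of 23 sterol synthesis genes 1 rose (median 0.10), of 12 fatty acid synthesis genes 1 rose and 1 fell (median 0.22), and of 10 genes of the sterol-sensing LXR receptors and lipid efflux 3 rose (median 0.16). The shares called were 12.5%, 4.35%, 16.7% and 30.0%, against 12.2% of all tested genes. The efflux list summed to 981 and 878 CPM after IL-4 and 1490 and 1390 CPM untreated, with 0 members called lower. With only the groups compared, from the 6 WT libraries or with no filter on low counts, 3 of its members were called lower. Nr1h3, the gene of LXR-alpha, stood at 10.8 and 10.5 CPM after IL-4 and 5.24 and 4.78 CPM untreated (log2 fold change 1.08 ± 0.14, edgeR adjusted p = 0.000408), the one call in these 4 lists that held without any 1 of the 4 libraries. Ch25h, which makes 25-hydroxycholesterol, stood at 9.699 and 11.6 CPM after IL-4 and 0.559 and 0.512 CPM untreated (4.30 ± 0.90, edgeR adjusted p = 0.0169), and Fabp4, a fatty acid carrier, at 149 and 121 CPM after IL-4 and 70.2 and 62.5 CPM untreated (1.02 ± 0.28, edgeR adjusted p = 0.0373); both calls, like those of Hadha, Etfdh and Acaca, were lost without any 1 of the 4. Abcg1, a cholesterol exporter (1.58 ± 0.30, edgeR adjusted p = 0.00721), and Mvd, an enzyme of cholesterol synthesis (0.64 ± 0.13, edgeR adjusted p = 0.00659), lost theirs without IL-4 library 2 or untreated library 1, and Me1, malic enzyme (−0.84 ± 0.16, edgeR adjusted p = 0.00494), without IL-4 library 1. With IL-4 library 1, IL-4 library 2, untreated library 1 and untreated library 2 left out in turn, the oxidation list held 0, 0, 1 and 0 increases and the efflux list 2, 1, 1 and 2.

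Eicosanoid genes, which make prostaglandins and leukotrienes, rose in 4 and fell in 5 of 16 cases (median −0.19). Ptgs1, cyclooxygenase 1, stood at 157 and 161 CPM after IL-4 and 47.1 and 46.1 CPM untreated (log2 fold change 1.77 ± 0.10, edgeR adjusted p = 5.86e-07). The prostaglandin E2 receptor gene Ptger2 stood at 16.9 and 18.8 CPM after IL-4 and 7.76 and 9.07 CPM untreated (1.09 ± 0.19, edgeR adjusted p = 0.00305). Hpgds, which makes prostaglandin D2, fell to 178 and 183 CPM after IL-4, against 293 and 288 CPM untreated (−0.69 ± 0.10, edgeR adjusted p = 0.0011). Alox5, the first enzyme of leukotriene synthesis, stood at 4.58 and 5.202 CPM after IL-4 and 11.7 and 10.6 CPM untreated (−1.19 ± 0.27, edgeR adjusted p = 0.0132), a call lost without IL-4 library 1, IL-4 library 2 or untreated library 1. Alox15, an enzyme that IL-4 induces in human monocytes, had 3 counts after IL-4 and 7 untreated and was not tested. In the fits without IL-4 library 1, IL-4 library 2, untreated library 1 and untreated library 2, the 4 increases became 2 each time and the 5 decreases 1, 1, 2 and 3.

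Of 25 glycolysis and pentose phosphate genes 1 rose and 4 fell (median −0.08), 20.0% of the list against 12.2% of all tested genes called in either direction. Aldoc, an aldolase, stood at 23.3 and 21.2 CPM after IL-4 and 47.98 and 48.3 CPM untreated (log2 fold change −1.11 ± 0.11, edgeR adjusted p = 5.1e-05). The lactate exporter gene Slc16a3 stood at 30.01 and 37.4 CPM after IL-4 and 62.1 and 68.5 CPM untreated (log2 fold change −0.95 ± 0.12, edgeR adjusted p = 0.000344). Pfkl, a phosphofructokinase chain, and G6pdx, the entry enzyme of the pentose phosphate path, had log2 fold changes of −0.57 ± 0.11, edgeR adjusted p = 0.00436, and −0.47 ± 0.083, edgeR adjusted p = 0.00286. These 4 calls held without any 1 of the 4 libraries; the 1 increase, Rpia, was lost without IL-4 library 1, IL-4 library 2 or untreated library 1. In the fit of all 12 libraries 8.33% of TCA cycle and itaconate genes and 2.5% of nuclear respiratory chain genes were called. Both shares lay under 12.2%. Of 24 genes of the TCA cycle and itaconate 1 rose and 1 fell (median 0.17), and of 40 nuclear genes of the respiratory chain 1 rose and 0 fell (median 0.19). Both of those increases, Aco1 (0.42 ± 0.084, edgeR adjusted p = 0.00653) and Uqcrc1 (0.37 ± 0.089, edgeR adjusted p = 0.0192), were lost without any 1 of the 4 libraries.

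NADPH oxidase and antioxidant genes fell in 9 of 19 cases and rose in 2 (median −0.49). Gclm, a chain of the enzyme that starts glutathione synthesis, stood at 183 and 172 CPM after IL-4 and 318 and 296 CPM untreated (log2 fold change −0.79 ± 0.091, edgeR adjusted p = 0.000125). Gsr, glutathione reductase, stood at 128 and 125 CPM after IL-4 and 211 and 231 CPM untreated (log2 fold change −0.80 ± 0.11, edgeR adjusted p = 0.000637), and Srxn1, which repairs peroxiredoxins, at 179 and 175 CPM after IL-4 and 280.0 and 271 CPM untreated (log2 fold change −0.64 ± 0.089, edgeR adjusted p = 0.000546). The oxidase chain gene Ncf4 rose to 106 and 104 CPM after IL-4, against 63.2 and 61.9 CPM untreated (0.75 ± 0.084, edgeR adjusted p = 0.000103). The 9 decreases became 5 without IL-4 library 1, and without IL-4 library 1 or untreated library 1 the 2 increases became 1.

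Genes of the amino acid stress response and of protein folding rose in part. The shares called were 38.1% for the amino acid and ATF4 response and 33.3% for folding, against 12.2% of all tested genes. Ribosome biogenesis (4.17%) and cell cycle genes (4.26%) lay under that share in the fit of all 12 libraries. Of 21 genes of the amino acid and ATF4 response 8 rose and 0 fell (median 0.52), of 18 genes of protein folding in the endoplasmic reticulum 5 rose and 1 fell (median 0.31), of 24 ribosome biogenesis genes 1 rose (median 0.38), and of 47 cell cycle genes 0 rose and 2 fell (median −0.23). The last 2 counts changed with the fit. The ribosome biogenesis increases were 17 with only the groups compared, 12 from the 6 WT libraries and 10 with no filter on low counts. The cell cycle decreases were 23, 17 and 12 under the same settings. Over all genes tested those fits called 1844 higher and 1718 lower of 15325, 1373 and 1232 of 15684, and 1355 and 1298 of 25508. Pdia4, a protein disulfide isomerase, stood at 619 and 590.2 CPM after IL-4 and 183 and 205 CPM untreated (log2 fold change 1.64 ± 0.15, edgeR adjusted p = 2.69e-05), and Trib3, a pseudokinase that ATF4 induces, at 8.59 and 7.74 CPM after IL-4 and 2.38 and 3.62 CPM untreated (log2 fold change 1.44 ± 0.25, edgeR adjusted p = 0.00241). These 2 calls held without any 1 of the 4 libraries. Atf4 (0.49 ± 0.10, edgeR adjusted p = 0.00747) and Calr (0.63 ± 0.16, edgeR adjusted p = 0.0232) lost theirs without IL-4 library 1, IL-4 library 2 or untreated library 1, Atf5 (1.12 ± 0.22, edgeR adjusted p = 0.00747) without IL-4 library 2 or untreated library 1, and Ddit3 (0.72 ± 0.15, edgeR adjusted p = 0.00878) without IL-4 library 1 or untreated library 2. The calls of Creld2, Edem1, Nop16, Cdkn1b and Cdkn2c were lost without any 1 of the 4. Without IL-4 library 1, IL-4 library 2, untreated library 1 and untreated library 2 the 8 ATF4 genes became 5, 2, 2 and 6 and the 5 folding genes 1, 1, 1 and 2.

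**Figure D4:**
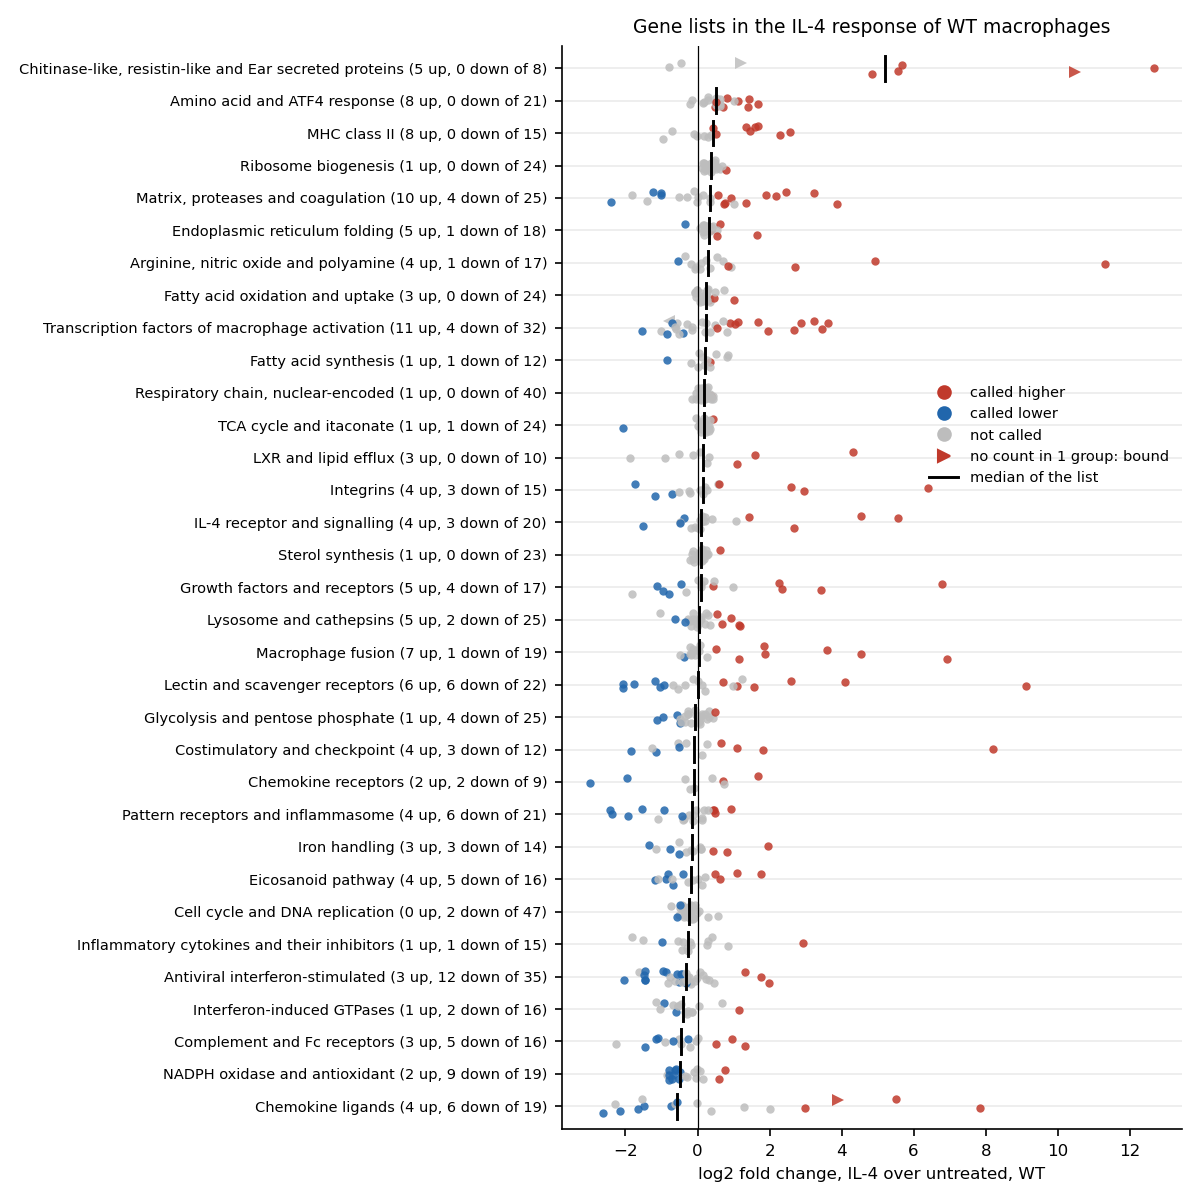
Log2 fold change of IL-4 over untreated in WT cells for the tested members of 33 gene lists, 1 point a gene, ordered by the list median (black bar); red members rose, blue fell and grey were not called. Triangles stand at the bound of genes with no count in a group, which the medians use, and genes with at most 3 counts in both groups are left out. Secreted proteins lie highest (median 5.20), and NADPH oxidase and antioxidant genes (median −0.49) and chemokine ligands (median −0.56) lowest.

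The same genes mostly moved in the same direction in CKO macrophages, which share no library with the WT comparison. There, with only the groups compared, IL-4 raised 670 genes and lowered 546, against 1844 and 1718 in WT. In the fit of all 12 libraries it raised 1828 genes in CKO (11.2% of those tested) and lowered 1836 (11.3%). Those counts were 1053 and 974 without untreated CKO library 1, 977 and 734 without CKO IL-4 library 2, and 2745 and 2469 without untreated CKO library 2. Irf8, whose protein the series title names, stood at 169 and 139 CPM after IL-4 and 293 and 248 CPM untreated in CKO, beside 70.9 and 65.7 CPM after IL-4 and 90.9 and 91.2 CPM untreated in WT; a count over the whole gene does not show whether a part of it was deleted. Of the 1081 WT increases 864 were also called higher in CKO, 79.9% of the WT increases and 47.3% of the CKO increases. Of the 911 WT decreases 699 were also called lower in CKO, 76.7% of the WT decreases and 38.1% of the CKO decreases. Only 3 WT calls were called the other way in CKO, 1 of the increases and 2 of the decreases. The WT increases had a median log2 fold change of 0.96 in WT and 0.85 in CKO, and the WT decreases −0.75 in WT and −0.74 in CKO. Without untreated CKO library 1, which stood apart, 740 increases (68.5%) and 601 decreases (66.0%) were shared. The shared calls were fewest without CKO IL-4 library 2, 699 increases (64.7%) and 515 decreases (56.5%).

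The response itself differed between genotypes past the test in 6 genes, 0.0368% of those tested, 2 with a more positive and 4 with a more negative response in WT. Acod1, which makes itaconate (ENSMUSG00000022126.6, chr14:103046977-103056573), fell in WT and rose in CKO: 2.12 and 1.76 CPM after IL-4 and 8.25 and 7.81 CPM untreated in WT (−2.06 ± 0.17, edgeR adjusted p = 1.02e-05), and 5.17 and 7.09 CPM after IL-4 and 4.25 and 3.63 CPM untreated in CKO (0.65 ± 0.15, edgeR adjusted p = 0.0113). The difference of the 2 responses was −2.71 ± 0.23, edgeR adjusted p = 0.00136. Chil3 rose more in WT than in CKO, where it stood at 693 and 571 CPM after IL-4 and 108 and 78.8 CPM untreated (5.69 in WT and 2.76 in CKO, difference 2.92 ± 0.33, edgeR adjusted p = 0.0165). Flrt2, an adhesion protein gene, rose less in WT than in CKO (2.47 in WT and 3.70 in CKO, difference −1.23 ± 0.14, edgeR adjusted p = 0.0137). Prps1, a nucleotide synthesis enzyme, also rose less in WT (1.06 in WT and 2.89 in CKO, difference −1.83 ± 0.23, edgeR adjusted p = 0.0183), as did Angptl2, a secreted angiopoietin-like protein (1.88 in WT and 3.003 in CKO, difference −1.12 ± 0.16, edgeR adjusted p = 0.0487). Ermard was not called in WT (−0.42, edgeR adjusted p = 0.0808) and fell in CKO (−1.81, difference 1.39 ± 0.20, edgeR adjusted p = 0.0487).

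Of these only Acod1 kept the genotype difference without any 1 of the 8 libraries (differences −2.91 to −2.48), in fits that also drew on the IFN-γ libraries. With only the groups compared, 0 genes passed in either direction, so the Acod1 call was lost too. Without WT IL-4 library 1, WT IL-4 library 2, WT untreated library 1 and WT untreated library 2 there were 1, 2, 0 and 0 genes with a more positive response in WT and 1, 1, 1 and 2 with a more negative one. Without CKO IL-4 library 1, CKO IL-4 library 2, untreated CKO library 1 and untreated CKO library 2 these counts were 2, 0, 0 and 88 and 3, 6, 4 and 283. Chil3 lost the call without WT untreated library 1 (edgeR adjusted p = 0.118), WT untreated library 2 (0.168), CKO IL-4 library 2 (0.0781) or untreated CKO library 1 (0.0555), with differences from 2.68 to 2.99 in those 4 fits.

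**Figure D5:**
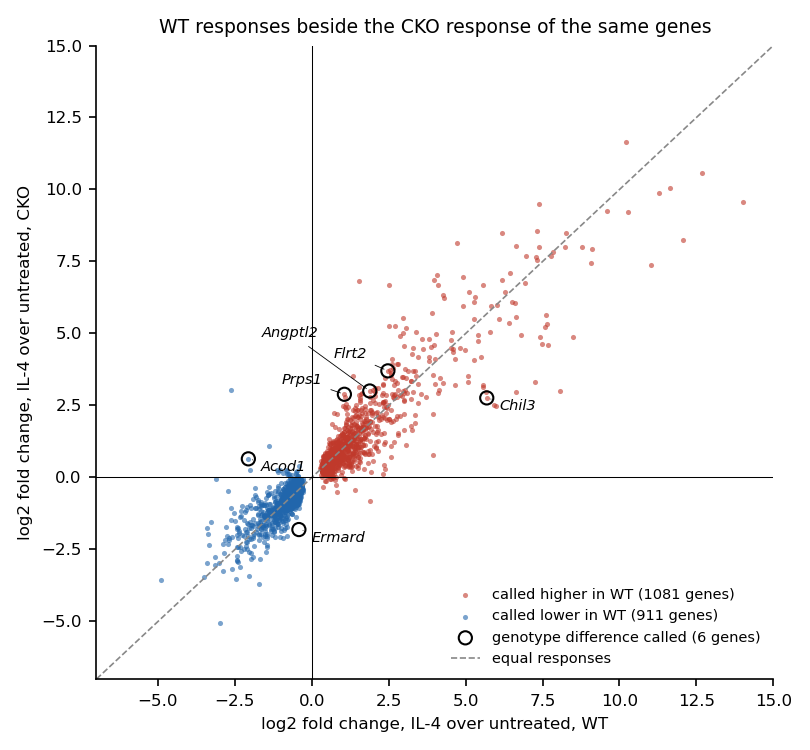
Log2 fold change of IL-4 over untreated in WT (horizontal axis) against the same in CKO (vertical axis) for the 1081 genes that rose (red) and the 911 that fell (blue) in WT, with circles around the 6 genes whose response differed between genotypes. Most points lie near the dashed line of equal responses; Chil3 lies below it and Acod1 in the upper left, lower after IL-4 in WT and higher in CKO.

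In the fit of all 12 libraries several lists had more increases in CKO than in WT, beside 6.64% of all tested genes in WT and 11.2% in CKO. Of 23 sterol synthesis genes 1 rose in WT and 19 rose in CKO, and of 24 ribosome biogenesis genes 1 rose in WT and 17 rose in CKO. Respiratory chain genes had 1 increase in WT and 11 in CKO, TCA cycle and itaconate genes 1 in WT and 10 in CKO, and endoplasmic reticulum folding genes 5 in WT and 13 in CKO. Of the members of these 5 lists Acod1 alone differed between genotypes past the test. The WT counts changed with the fit: with only the groups compared they were 2 for sterol synthesis, 17 for ribosome biogenesis, 9 for the respiratory chain, 8 for the TCA cycle and 10 for folding. Over all genes the order then reversed, with 1844 increases and 1718 decreases in WT and 670 and 546 in CKO. CKO counts by list were not taken from that fit. The CKO counts in the same order of lists were 8, 4, 6, 3 and 11 without untreated CKO library 1 and 8, 1, 4, 1 and 11 without CKO IL-4 library 2. WT medians were 0.10 for sterol synthesis and 0.38 for ribosome biogenesis, and CKO medians 0.59 and 0.76.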

How the data were processed

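RNA was measured in 12 libraries of mouse bone marrow-derived macrophages made with the Illumina NextSeq RNA Exome kit, per the labels' protocols. The deposited table holds whole-number counts per gene, not normalized. The submitters' processing notes name HTSeq 0.6.1, TopHat2 2.0.13, CASAVA 1.8.2 and Picard and the builds GRCh38 and mm10, with no role. The strand setting of the counting is not given in the sources used here; antisense and overlapping genes are uncertain.

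The counts were scaled by TMM and tested with edgeR 4.0.16 (quasi-likelihood F test, robust) in R 4.3.3, with limma 3.58.1 loaded by it. All 12 libraries in 6 groups entered 1 fit with 6 residual degrees of freedom, so the spread is shared over groups; filterByExpr kept 16292 of 48440 genes, of which 22932 had no count. Calls use a Benjamini-Hochberg adjusted p under 0.05 over all tested genes. An error after ± on a log2 fold change is a standard error derived from the F statistic and is approximate; fitted fold changes use a prior count of 0.125. CPM are not scaled by length, so levels of different genes are not compared. The test was checked on simulated data with 200 genes changed in the WT IL-4 libraries. It recovered 78 of 100 changes of 2-fold and 98 of 100 of 4-fold, with 9 false among 185 calls. For the genotype difference it recovered 58 and 86, with 14 false among 158 calls. The simulation used the same spread in all groups. Chi-square between libraries, over its degrees of freedom, was 5.03 for WT IL-4, 36.4 for untreated WT and 90.8 for untreated CKO. The check does not cover this inequality.

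Named genes are the 15 largest increases and decreases among calls without overlap whose mean log2 CPM was 3 or more, up to 4 members of each gene list by adjusted p, all tested members of the first 3 lists (receptor and signalling, arginine, secreted proteins), Irf8, Stat6, Il4ra and Lyz2. All calls of the genotype difference are named too, at any mean. Genes with no proper symbol were counted and not named, and any other gene named was chosen after its values were seen. The libraries and the gene lists were chosen with earlier results of these data known. Gene positions come from GENCODE M21 (GRCm38), matched by identifier with the version ignored for 16218 of 16292 tested genes, and promoters from RefSeq (GRCm38.p6). Alternatives were DESeq2 1.42.0, its size factors, other filters, other sets of libraries, a replicate block and leaving out each library. Some genes are not reported here.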

Additional observations from a re-analysis of the deposited data

Results flagged for a closer look

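In 6 genes the response to IL-4 itself differed between WT and CKO macrophages, as the difference of the 2 log2 fold changes (WT minus CKO) passed the test (edgeR adjusted p in each case). Acod1 differed by −2.71 (adjusted p = 0.00136), with a log2 fold change of −2.06 in WT and 0.65 in CKO. Chil3 differed by 2.92 (adjusted p = 0.0165), with 5.69 in WT and 2.76 in CKO. Prps1 differed by −1.83 (adjusted p = 0.0183), with 1.06 in WT and 2.89 in CKO. Flrt2 differed by −1.23 (adjusted p = 0.0137), with 2.47 in WT and 3.70 in CKO. Angptl2 differed by −1.12 (adjusted p = 0.0487), with 1.88 in WT and 3.003 in CKO. Ermard differed by 1.39 (adjusted p = 0.0487), with −0.42 in WT, not called there, and −1.81 in CKO.

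Without 1 library at a time the difference was lost for Flrt2 without WT IL-4 library 1, WT IL-4 library 2 or WT untreated library 1, for Prps1 without any WT library or CKO IL-4 library 1, and for Angptl2 and Ermard without any library but untreated CKO library 2. The groups held 2 libraries each. With only the groups compared, 0 genes passed the test of the difference, so Acod1 was lost as well.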

How the results depend on the processing

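At this depth genes with few counts are given by counting intervals or bounds. No gene called in WT changed sign under any alternative. The WT counts of 1081 higher and 911 lower stayed within 1.5 times with DESeq2 (1077 and 963), its size factors (1065 and 931), no filter on low counts (1355 and 1298) and a mean CPM of at least 5 (759 and 783). Alternatives chosen after seeing the data gave 1309 and 1188 with the spread estimated without untreated CKO library 1, and 1373 and 1232 from the 6 WT libraries alone.

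Requiring a 2-fold change gave 518 and 291 in WT, 646 and 558 in CKO, and 949 and 1148 for IL-4 against IFN-γ. Fitting only the groups compared gave 1844 and 1718 in WT, 670 and 546 in CKO, and 0 and 0 for the genotype difference. That difference, 2 and 4 as reported, was 16 and 26 with DESeq2, 96 and 195 with no filter, and 1 higher at a mean CPM of at least 5. Leaving out 1 library at a time gave 553 to 588 higher and 337 to 462 lower in WT, 977 to 2745 and 734 to 2469 in CKO, 0 to 88 and 1 to 283 for the genotype difference, and 1412 to 1932 and 1640 to 2077 against IFN-γ; of the 1992 WT calls 44.7% to 51.4% remained. Where 1 library was left in a group it was assumed to vary like the others. The cause was not tested.

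The library numbers are shared between groups but the labels do not say what they mark, and 2 numbers are too few to settle whether they pair the libraries. Library 1 minus library 2, over 9318 genes, correlated between groups at r = 0.255 for IL-4 with untreated WT, 0.725 for untreated with IFN-γ WT, 0.537 for IL-4 with untreated CKO, and −0.0488 for WT IL-4 with CKO IFN-γ, the one pair of groups below 0.1. With a replicate block by number over all libraries WT had 1340 and 1173 calls and the genotype difference 10 and 16. With the replicate block within genotype WT had 1568 and 1455, CKO 2784 higher, the genotype difference 37 and 48, and the WT lists 13 ribosome biogenesis increases and 12 cell cycle decreases.

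A pair of uncalled genes changed sign. Akt1, at 0.01, was −0.011 with no filter, −0.009 at a mean CPM of at least 5 and −0.001 with the spread estimated without untreated CKO library 1. Without 1 library at a time Akt1 was −0.024 to 0.022 and Pik3cd, at 0.10, −0.029 to 0.194.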
